A study of Rattus norvegicus with 8 samples.

Results

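Cisd1, Prcp, Mgrn1, Cmtm4 and Zdhhc15 are 5 genes outside the extracellular matrix whose RNA was lower after knockdown of the RNA-binding protein HuR in each of 4 pairs of rat disc cell cultures. They were picked by name for that difference, out of 13536 rows in the table of all genes, and all 5 passed the filter on low values. The same contrast chose them, so their values are a description and carry no test. Tests are given for their relatives and for genes of their pathways, which were listed by family and pathway with earlier results of these data known.

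The cultures were primary nucleus pulposus cells, which fill the gel-like centre of the intervertebral disc. In the ShHuR group, Wistar rat cells carried a lentiviral short hairpin RNA against HuR, the product of Elavl1. In the ShCTR group they carried the MISSION PLKO.1 hairpin that has no target. Both groups were expanded from explants in DMEM with 10% FBS, both were transduced, and both spent 24 h at 1% oxygen before RNA was taken, so no untransduced or normoxic culture enters. There were 4 libraries in each group, numbered 1 to 4, and libraries with the same number are called a pair here. The labels name 1 hairpin per group and are silent on whether its 4 libraries stem from different animals or cultures, so a p-value here speaks only of the spread among these libraries, which may be technical.

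HuR binds many messenger RNAs at AU-rich elements and can change how long they last and how much protein they yield. The 5 genes act in different compartments. Cisd1 encodes mitoNEET, an iron-sulfur protein anchored in the outer mitochondrial membrane. Prcp encodes prolylcarboxypeptidase, a lysosomal enzyme that cuts angiotensin, kinin and melanocortin peptides behind a proline. Mgrn1 encodes mahogunin, a ubiquitin ligase that acts with attractin in mouse coat colour and brain maintenance, and that restrains Hedgehog signalling in mouse cells. Cmtm4 encodes a membrane protein with a MARVEL domain, which in human cells can take over from CMTM6 in keeping the immune checkpoint ligand encoded by CD274 at the cell surface. Zdhhc15 encodes an enzyme that attaches palmitate to proteins.

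Promoter letters are shown as a description only. The shared direction of the 5 genes is how they were picked, and a part of the promoters in it was not tested. The 100 bases before the gene start in RefSeq (GRCr8, plus strand) were read for the 3 members with an entry, Cisd1, Prcp and Cmtm4. Capitals mark a motif match.
Cisd1, chr20:17254362-17254461: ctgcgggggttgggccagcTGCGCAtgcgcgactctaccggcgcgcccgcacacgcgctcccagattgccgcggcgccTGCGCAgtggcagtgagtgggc
Prcp, chr1:156343794-156343893: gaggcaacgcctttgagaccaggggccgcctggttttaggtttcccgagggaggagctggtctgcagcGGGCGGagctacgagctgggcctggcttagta
Cmtm4, chr19:582542-582641: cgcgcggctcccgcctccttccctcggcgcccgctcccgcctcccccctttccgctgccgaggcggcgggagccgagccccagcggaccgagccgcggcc

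All 3 were rich in G and C, at 75.0% in Cisd1, 64.0% in Prcp and 83.0% in Cmtm4. The median was 54.0% over the 100 bases before the start of 33469 promoters. Those promoters, from which the motif shares below also come, were not limited to genes tested here. The letters searched, on both strands, were the GC box (GGGCGG), the CCAAT box (CCAAT), the TATA box (TATAAA) and the core of the site that the factor NRF-1 binds (TGCGCA), and no match overlapped another. Cisd1 held the NRF-1 core at 2 places, whose first bases lay 81 and 22 bases before the start, and 3.51% of promoters held it. Prcp held a GC box whose first base lay 32 bases before the start, and 21.6% of promoters held one. None of the 3 held the CCAAT box, found in 17.1% of promoters, or the TATA box, found in 5.78%. Cmtm4 held no match, so no motif was shared by the 3. A match is a description of letters, and no match says only that they are not in this window.

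Recovered reads per library ran from 6797360 to 8038192 in ShHuR and from 9096738 to 12179515 in ShCTR, so depth moved with the group. Its part in the results was not tested. Of the nucleus pulposus and notochord markers, 13 were tested and 4 fell in limma, a linear-model test across all rows, with replicate number as a block (30.8%, beside 15.2% of all rows called in either direction and 8.05% called lower). Among them was Acan, the large disc proteoglycan, with 14.2 to 211 normalized counts in ShHuR and 72.6 to 449 in ShCTR. Col2a1, the cartilage collagen, was at most 3.04 in ShHuR and at most 21.0 in ShCTR. Sox9 lay between 8.08 and 32.4 in ShHuR and between 13.9 and 44.8 in ShCTR, and Krt19 and T were not analysed here. Car12 fell, with 52.5 to 462 in ShHuR and 153 to 681 in ShCTR. Other markers of the list were higher in ShHuR without passing the test. Cd24 averaged 48.5 ± 37.1 in ShHuR and 24.3 ± 21.7 in ShCTR (SD, n = 4 each), higher in 3 of 4 pairs, and the cadherin Cdh2 and the glucose transporter Slc2a1 were higher in all 4 pairs, with log2 differences of 0.55 and 0.58. Without pair 1 the list had 3 genes called higher and 4 lower. The summed level of this list ran from 6765 to 34008 in ShHuR and from 6505 to 34443 in ShCTR. Slc2a1 alone had 30410 in ShCTR replicate 1 and 3712 to 8190 in the other ShCTR libraries. In ShCTR the sum thus largely follows that gene and says little about the other markers. Of 13 annulus and fibroblast markers 1 rose and 5 fell (46.2% called, beside 15.2% of all rows), and their sum ran from 55629 to 137127 in ShHuR and from 72066 to 169296 in ShCTR. The 3 leukocyte markers tested did not pass, with sums of 563 to 1290 in ShHuR and 334 to 993 in ShCTR. The 1 endothelial marker tested, Flt1, rose, and that list summed to 427 to 1425 in ShHuR and 247 to 558 in ShCTR. The 3 erythroid and adipocyte markers tested did not pass, with sums of 86.6 to 383 in ShHuR and 67.6 to 92.5 in ShCTR. No marker with a row was at 0 in all libraries. The part of these cell types in the results below was not tested. In bulk RNA, fewer cells of a type and less RNA per cell cannot be told apart.

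Elavl1 (ENSRNOG00000001069), the targeted gene, had 63.8, 6.06, 8.36 and 49.6 normalized counts in ShHuR replicates 1 to 4, against 555, 699, 583 and 644 in ShCTR replicates 1 to 4. The ShHuR cultures held 11.5%, 0.867%, 1.43% and 7.70% of the level of their ShCTR partner. Elavl1 RNA was thus lowest in ShHuR replicates 2 and 3.

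Cisd1 (ENSRNOG00000000610) is known for its redox-active iron-sulfur cluster, which faces the cytosol. It had 556, 111, 97.1 and 246 normalized counts in ShHuR replicates 1 to 4, against 1542, 650.2, 683 and 1022 in ShCTR replicates 1 to 4. The means were 253 ± 213 in ShHuR and 974 ± 414 in ShCTR (SD, n = 4 each). Replicate 1 was the highest library in both groups, and the highest ShHuR value still lay below the lowest ShCTR value. The ShHuR level was 36.1%, 17.1%, 14.2% and 24.1% of its ShCTR partner in pairs 1 to 4, and the mean log2 difference was -2.21 with an SD of 0.59 over the pairs. The gap between the groups was narrow, with the lowest ShCTR value 1.17 times the highest ShHuR value, while values within a group differed by up to 5.73 times in ShHuR and 2.37 times in ShCTR.

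Prcp (ENSRNOG00000010630) works in the lysosome and on the cell surface. It had 157, 87.9, 65.8 and 119.5 normalized counts in ShHuR replicates 1 to 4, against 612, 261, 240.1 and 331 in ShCTR replicates 1 to 4. The means were 107 ± 39.5 in ShHuR and 361 ± 172 in ShCTR (SD, n = 4 each). Replicate 1 was again the highest in both groups and replicate 3 the lowest in both, and the groups did not overlap. ShHuR cultures held 25.6%, 33.7%, 27.4% and 36.1% of the ShCTR level in pairs 1 to 4. The mean log2 difference was -1.71 with an SD of 0.24, and its 4 pair differences spanned 0.50 on the log2 scale, the smallest span of the 5 genes.

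Mgrn1 (ENSRNOG00000003234) had 263, 118, 86.7 and 123 normalized counts in ShHuR replicates 1 to 4, against 560.4, 406, 455 and 332 in ShCTR replicates 1 to 4. The means were 148 ± 78.5 in ShHuR and 438 ± 95.6 in ShCTR (SD, n = 4 each). ShHuR replicate 1 stood highest in its group, while the groups again did not overlap. The share left was 46.9%, 29.1%, 19.1% and 36.9% in pairs 1 to 4, with a mean log2 difference of -1.67 and an SD of 0.55. Pair 1 gave the smallest difference of any member in any pair, -1.09.

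Cmtm4 (ENSRNOG00000011009) had 199, 84.8, 111 and 178 normalized counts in ShHuR replicates 1 to 4, against 472, 417, 443 and 502 in ShCTR replicates 1 to 4. The means were 143 ± 54.2 in ShHuR and 458 ± 36.5 in ShCTR (SD, n = 4 each). The ShCTR libraries were close to each other, with a coefficient of variation of 7.95%, while it was 37.8% in ShHuR. ShHuR cultures held 42.2%, 20.3%, 25% and 35.5% of the ShCTR level, a mean log2 difference of -1.75 with an SD of 0.47. The lowest ShCTR value was 2.10 times the highest ShHuR value.

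Zdhhc15 (ENSRNOG00000002751) had the fewest reads of the 5. It had 24.3, 19.2, 4.18 and 17.2 normalized counts in ShHuR replicates 1 to 4, against 122, 116, 131 and 78.0 in ShCTR replicates 1 to 4. The means were 16.2 ± 8.57 in ShHuR and 112 ± 23.3 in ShCTR (SD, n = 4 each). The groups were far apart, with the lowest ShCTR value 3.21 times the highest ShHuR value. The mean log2 difference was -2.90 with an SD of 1.19, and the share left was 19.9%, 16.5%, 3.20% and 22.1% in pairs 1 to 4. Behind the ShHuR values stood 16, 19, 4 and 17 reads, against 131, 159, 143 and 87 reads in ShCTR. The 4 reads of ShHuR replicate 3 have a 95% exact Poisson interval of 1.09 to 10.2 reads, which covers counting error only, so the large difference of pair 3 was imprecise. The pseudocount of 1 also understates the change of a gene this low.

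**Figure D1:**
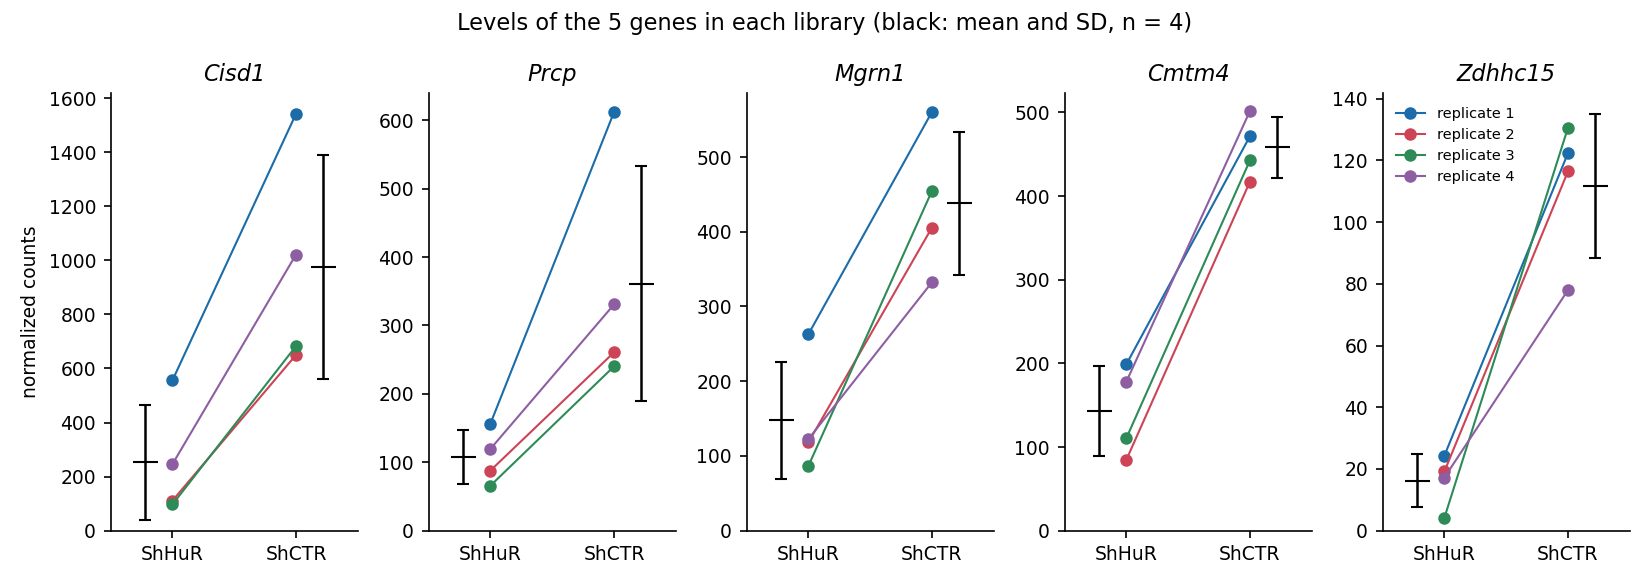
Normalized counts (y axis, from 0, a separate scale for each gene) of Cisd1, Prcp, Mgrn1, Cmtm4 and Zdhhc15 in the ShHuR and ShCTR libraries, with a line joining libraries of the same replicate number and black bars for the mean and SD of 4 libraries. Every line runs upward to ShCTR and no ShHuR point reaches the lowest ShCTR point of its gene, with the narrowest gap in Cisd1 (1.17 times) and the widest in Zdhhc15 (3.21 times).

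All 5 genes had every ShHuR value below every ShCTR value, a separation seen in 3.09% of the 11847 rows tested. A lower value in all 4 pairs, the property that chose them, held for 19.4% of rows. The rule gave no numeric margin. Mgrn1 had the smallest least difference of the members, -1.09 on the log2 scale (the pair in which a gene differed least), and 27 rows (0.228%) differed at least as much in each pair. The row next outside was Mapk8ip3, a scaffold protein of the JNK pathway, also at -1.09. Of those 27 rows 5 were the members and 1 was Elavl1. The others included Actb, cytoplasmic beta-actin, with a least difference of -1.17, and the matrix genes Col1a1 at -1.15 and Col3a1 at -1.17. These 4 names were chosen after their values were seen.

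The 5 rows outside the members with the largest least differences began with Elavl1, at -3.10. Gnai1, an inhibitory G-protein alpha subunit, averaged 63.3 ± 58.9 normalized counts in ShHuR and 427 ± 166 in ShCTR, with a least difference of -2.11. Chrm2, a muscarinic acetylcholine receptor, averaged 14.3 ± 16.5 in ShHuR and 62.3 ± 63.2 in ShCTR, with a least difference of -1.61. The unannotated rows NEWGENE_621351 and RGD1310352 followed at -1.44 and -1.40. Zdhhc15, at -2.12, stood between Elavl1 and Gnai1, and Cisd1 and Prcp, at -1.47 and -1.46, came just after Chrm2. The authors' deposited table gives log2 fold changes of -2.10 for Zdhhc15, -1.97 for Cisd1, -1.62 for Prcp, -1.58 for Cmtm4 and -1.50 for Mgrn1. By those values they stand 2, 3, 11, 14 and 23 among the genes that are lower in that table. Elavl1 stands 7 there, at -1.82, while its mean log2 difference here was -4.84. The deposited fold changes and their order are thus a different measure from the differences used here.

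The pairs did not carry the difference equally. In Cisd1, Mgrn1, Cmtm4 and Zdhhc15, and in Elavl1, the differences of pairs 2 and 3 were both larger than those of pairs 1 and 4. The same order held in 809 of the 2304 rows that were lower in all 4 pairs, or 35.1%. Prcp ran otherwise, with its largest difference in pair 1, as did 11.7% of those rows. The smallest difference was in pair 1 for 3 members and for 52.6% of those rows. The largest was in pair 3 for 3 members and for 52.8%. Pair 1 thus differed least both in most members and in most rows that were lower in all 4 pairs.

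**Figure D2:**
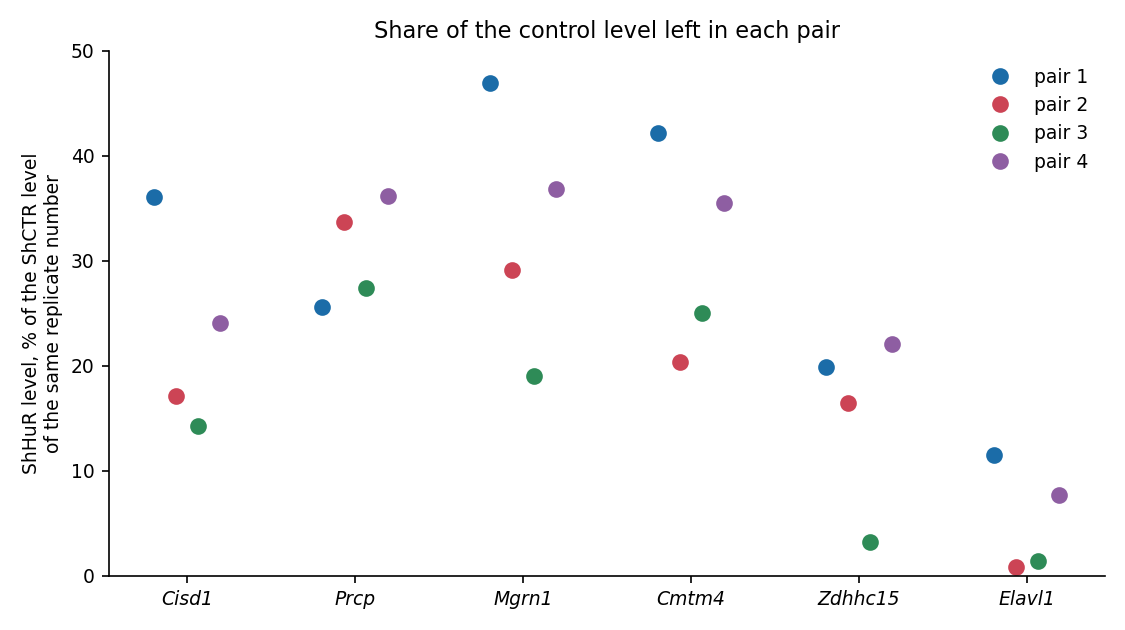
ShHuR level as a percentage of the ShCTR level with the same replicate number (y axis) for the 5 genes and Elavl1, 1 point per pair. Prcp points lie between 25.6% and 36.1%, Zdhhc15 points between 3.20% and 22.1%, and Elavl1 points between 0.867% and 11.5%.

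The means of the 4 pairs, over ShHuR and ShCTR together, spanned 1.84 on the log2 scale in Cisd1, 1.29 in Prcp, 0.95 in Mgrn1, 0.70 in Cmtm4 and 1.10 in Zdhhc15, against a median of 0.94 over all rows tested. Replicate number thus moved 4 of the members by at least as much as it moved the median row, and Cmtm4 by less. Pearson's r between members over the 8 libraries, on the log2 scale, ran from 0.87 for Cisd1 with Zdhhc15 to 0.96 for Cisd1 with Prcp. All members share the libraries and the group difference, so these values describe the choice.

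The rows most like each member were found by Pearson's r over the same 8 libraries, with the median row near 0 (between -0.03 and -0.01). For Cisd1 they were the unannotated AABR07067556.1 at 0.993, Mccc1, a mitochondrial enzyme of leucine breakdown, at 0.989, and Cacna2d1, a calcium channel subunit, at 0.989. For Prcp they included RGD1310352 at 0.981 and Tk2, the mitochondrial thymidine kinase, at 0.979. For Mgrn1 they were Gnai1 at 0.994, the membrane protein gene Tmem185a at 0.984 and Ric8b, a chaperone of G-protein alpha subunits, at 0.983. For Cmtm4 the row most like it was Elavl1 itself, at 0.993, before MGC116202 at 0.981 and Gpatch2l at 0.978. For Zdhhc15 they were Ddhd2, a phospholipase, at 0.989, the deubiquitinase gene Usp46 at 0.978 and Rubcn, a regulator of autophagy, at 0.978. The log2 differences of the rows named were smaller than that of their member except for Elavl1 and Gnai1, and ran down to -0.55 in Ddhd2, at 132 normalized counts in ShHuR and 192 in ShCTR. RGD1310352 had a difference of -1.70, beside -1.71 in Prcp. The members were chosen for a group difference, so rows that differ between the groups rank high by r. These values describe that choice too, and shared regulation was not tested.

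Limma with replicate number as a block called 15.2% of the 11847 rows, 7.16% higher and 8.05% lower in ShHuR. Without the block limma called 0% of rows, with 978 at an unadjusted p under 0.05. edgeR without the block also called 0 rows, with 1010 at an unadjusted p under 0.05, and DESeq2 called 248. The rises and falls named below are those of the blocked fit of all 8 libraries, and each adjusted p is limma's over all rows tested. DESeq2 without the block also called Tomm70 and Ppt1 among them. Unblocked limma called Ppt1 and Zdhhc2 when ShHuR replicate 1 was left out.

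Of 26 relatives tested, 1 rose and 2 fell, or 11.5%, beside 15.2% of all rows, a share too near the background to be a result about the relatives, and the median log2 difference was -0.17 against 0.01 over all rows tested. The 3 were Cisd2, Cmtm3 and Zdhhc2, each in the family of a different member.

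Cisd2 is a relative of Cisd1 in the endoplasmic reticulum and at its contacts with mitochondria. It had 173, 343, 274 and 462 normalized counts in ShHuR replicates 1 to 4, against 367, 647, 495 and 671 in ShCTR replicates 1 to 4. It was lower in all 4 pairs though the groups overlapped, and replicate 1 was its lowest library in both groups, where Cisd1 was highest in both. Cisd2 fell by 0.85 on the log2 scale (SE 0.12, adjusted p = 0.0115, limma with the block). Cisd3, which lies inside mitochondria, had a log2 difference of -0.26 and did not pass the test (adjusted p = 0.248, limma with the block).

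Dpp7, the only other peptidase of the Prcp family with a row, averaged 2909.9 ± 1063 normalized counts in ShHuR and 2629 ± 731 in ShCTR (SD, n = 4 each), a log2 difference of 0.12 that did not pass (adjusted p = 0.501, limma with the block). Rnf157, the paralog of Mgrn1, averaged 80.5 ± 72.7 in ShHuR and 85.4 ± 62.1 in ShCTR (SD, n = 4 each), a log2 difference of -0.18 that did not pass (adjusted p = 0.479, limma with the block). Both had replicate 1 as their highest library in each group.

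In the family of Cmtm4, Cmtm3 rose. It had 229, 635, 508 and 408 normalized counts in ShHuR replicates 1 to 4, against 152, 349, 216 and 291 in ShCTR replicates 1 to 4. It was higher in all 4 pairs, by 0.79 on the log2 scale (SE 0.14, adjusted p = 0.018, limma with the block), although the groups overlapped. Cmtm6, from whose product CMTM4 can take over in human cells, had a log2 difference of 0.29 that did not pass (adjusted p = 0.110, limma with the block). Cmtm7 and Cklf had log2 differences of -0.42 and -0.45, neither past the threshold (adjusted p = 0.0521 and 0.259, limma with the block).

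Of 18 other palmitoyltransferases tested, Zdhhc2 alone was called in the blocked fit over all pairs. It belongs to the same subfamily as Zdhhc15. It had 425, 114, 63.7 and 149 normalized counts in ShHuR replicates 1 to 4, against 488, 691, 335 and 432 in ShCTR replicates 1 to 4. Pair 1 differed by -0.20 on the log2 scale and pairs 2 to 4 by -2.59, -2.38 and -1.53, so ShHuR replicate 1 lay inside the ShCTR range and the other 3 ShHuR values lay below it. Zdhhc2 fell by 1.67 on the log2 scale (SE 0.35, adjusted p = 0.0253, limma with the block). The log2 differences of the 18 ran from -1.67 to 0.25, with a median of -0.16.

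**Figure D3:**
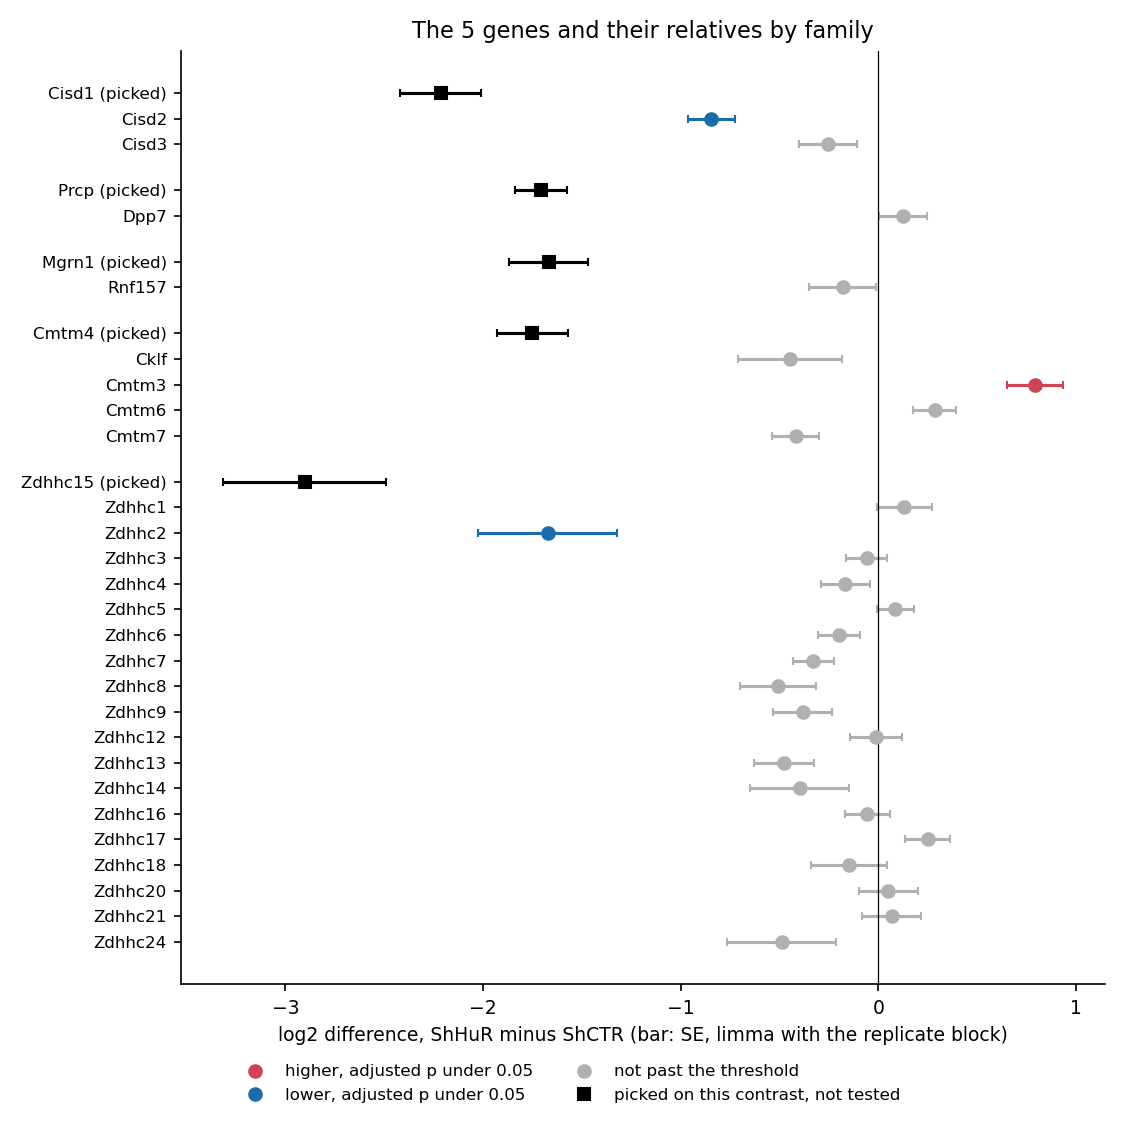
Log2 difference, ShHuR minus ShCTR (x axis), of the 5 genes and 26 relatives ordered by family, with SE bars from limma with the replicate block. The picked genes (black squares) lie between -2.90 and -1.67, and the called relatives are Cisd2 at -0.85, Zdhhc2 at -1.67 and Cmtm3 at 0.79.

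Genes of the pathways around the members were taken from 6 lists. Of 131 genes tested, 9 rose and 14 fell, or 17.6% beside 15.2% of all rows, and their median log2 difference was 0.02. A share this near the background is no result about the pooled lists, and no single list was tested as a set. Only single genes are therefore described, and each one called was lower in all 4 pairs or higher in all 4.

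On the outer mitochondrial membrane, where the Cisd1 protein sits, 1 of 38 genes rose and 3 fell. The share called was 10.5%, beside 15.2% of all rows, and the median was -0.02. Mfn2, which fuses and tethers mitochondria, fell by 1.10 on the log2 scale (SE 0.28, adjusted p = 0.0417, limma with the block). It had 19.8, 21.2, 13.6 and 10.1 normalized counts in ShHuR replicates 1 to 4, against 26.2, 39.5, 37.4 and 35.8 in ShCTR replicates 1 to 4. The ShHuR values lie near the filter of 10 normalized counts, so few reads stand behind them. Rhot2, which links mitochondria to motors, fell by 0.80 (adjusted p = 0.0295, limma with the block), and the fission adaptor Mief1 fell by 0.56 (adjusted p = 0.0469, limma with the block). Tomm70, an import receptor, rose by 0.73 (SE 0.12, adjusted p = 0.0135, limma with the block), with 242, 275, 315 and 243 normalized counts in ShHuR replicates 1 to 4, against 154, 142, 208 and 147 in ShCTR replicates 1 to 4. The groups overlapped in none of these 4 genes.

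Among 27 genes that assemble iron-sulfur clusters 1 rose and 2 fell (11.1%, beside 15.2% of all rows), with a median of 0.08. Bola3, which helps to hand clusters to lipoate and respiratory enzymes, had 138, 110.1, 59.5 and 73.9 normalized counts in ShHuR replicates 1 to 4, against 219, 254, 184 and 149.7 in ShCTR replicates 1 to 4. Bola3 fell by 1.12 (SE 0.17, adjusted p = 0.0127, limma with the block), and its groups did not overlap. Isca1 fell by 0.46 (adjusted p = 0.0335, limma with the block). Lias, the lipoate synthase that uses such clusters, rose by 0.45 (adjusted p = 0.0373, limma with the block). In both of these genes the groups overlapped and replicate 1 was the highest library of each group.

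Among 20 genes of the angiotensin and kinin peptides and the prolyl peptidases, to which Prcp belongs, 3 rose and 2 fell, with a median of 0.07. Bdkrb2, a bradykinin receptor, had 79.0, 415, 747 and 1121 normalized counts in ShHuR replicates 1 to 4, against 40.2, 93.7, 129 and 209 in ShCTR replicates 1 to 4. Replicate 1 was the lowest library in both groups and the groups overlapped, but every ShHuR value exceeded its ShCTR partner. Bdkrb2 rose by 2.01 on the log2 scale (SE 0.25, adjusted p = 0.00857, limma with the block). The peptidases Mme (neprilysin) and Xpnpep3 rose by 0.76 and 0.36, with adjusted p of 0.0492 and 0.0449 in limma with the block. Each lost its call in 2 of the 6 other blocked settings that kept every pair, where the adjusted p reached 0.0526 and 0.0573. Scpep1, a lysosomal carboxypeptidase, fell by 0.69 and Prepl, a prolyl endopeptidase-like hydrolase, fell by 0.45, with adjusted p of 0.0286 and 0.0321 in limma with the block.

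Among 15 partners of mahogunin and genes of Hedgehog signalling none rose and 4 fell, with a median of -0.18. The share called lower was 26.7%, beside 8.05% of all rows, and 15.2% of all rows were called in either direction. Atrn encodes attractin, the transmembrane protein that acts with mahogunin in mouse pigmentation. It had 1495, 1784, 1342 and 1338 normalized counts in ShHuR replicates 1 to 4, against 1958, 2661, 2442 and 1677 in ShCTR replicates 1 to 4, and only ShHuR replicate 2 exceeded the lowest ShCTR value. Atrn fell by 0.54 (SE 0.12, adjusted p = 0.028, limma with the block). The Hedgehog co-receptor Gas1 fell by 1.26 and Gpr161, a ciliary receptor that restrains the pathway, fell by 1.16, with adjusted p of 0.0449 and 0.0225 in limma with the block. Gas1 lost its call in 1 of the 6 other blocked settings that kept every pair, edgeR, at an adjusted p of 0.0532. Both genes were low, at 7.60 to 47.1 normalized counts in ShHuR and 18.7 to 57.5 in ShCTR. Their groups overlapped, and pair 1 of Gas1 differed by only -0.07 on the log2 scale.

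Among 10 partners of Cmtm4 and other MARVEL proteins 2 rose and 1 fell, with a median of -0.17. Cd274, whose human product CMTM6 and CMTM4 keep at the cell surface, had 100.3, 19.2, 46.0 and 69.9 normalized counts in ShHuR replicates 1 to 4, against 90.6, 5.86, 18.3 and 23.3 in ShCTR replicates 1 to 4. The groups overlapped, and pair 1 differed by only 0.15 on the log2 scale. Cd274 rose by 1.13 (SE 0.28, adjusted p = 0.0368, limma with the block). Sypl1 rose by 0.41 and Myadm fell by 0.85, both genes of MARVEL proteins, with adjusted p of 0.042 and 0.0441 in limma with the block. Cd274 and Sypl1 each lost the call in 1 of the 6 other blocked settings that kept every pair. The adjusted p was 0.0538 with edgeR for Cd274 and 0.0523 in limma after quantile normalization for Sypl1.

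Among 21 depalmitoylases and palmitoylated proteins 2 rose and 2 fell (19.0%, beside 15.2% of all rows), with a median of 0.02. Ppt1, the lysosomal enzyme that removes palmitate, had 574, 539, 342 and 385 normalized counts in ShHuR replicates 1 to 4, against 1073, 1174, 1171 and 884 in ShCTR replicates 1 to 4. The groups did not overlap, and Ppt1 fell by 1.25 on the log2 scale (SE 0.15, adjusted p = 0.00746, limma with the block). Sort1, sortilin, a sorting receptor that human ZDHHC15 palmitoylates, fell by 0.97 (SE 0.18, adjusted p = 0.0192, limma with the block). It had 2515, 444, 417 and 535 normalized counts in ShHuR replicates 1 to 4, against 2939, 996, 936 and 1352 in ShCTR replicates 1 to 4, so its groups overlapped through ShHuR replicate 1. Igf2r, the other such receptor, had a log2 difference of 0.14 and did not pass (adjusted p = 0.529, limma with the block). The depalmitoylases Abhd17c and Lypla1 rose by 0.63 and 0.36, with adjusted p of 0.0423 and 0.0492 in limma with the block. Lypla1 lost its call in 3 of the 6 other blocked settings that kept every pair, where the adjusted p reached 0.0637.

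**Figure D4:**
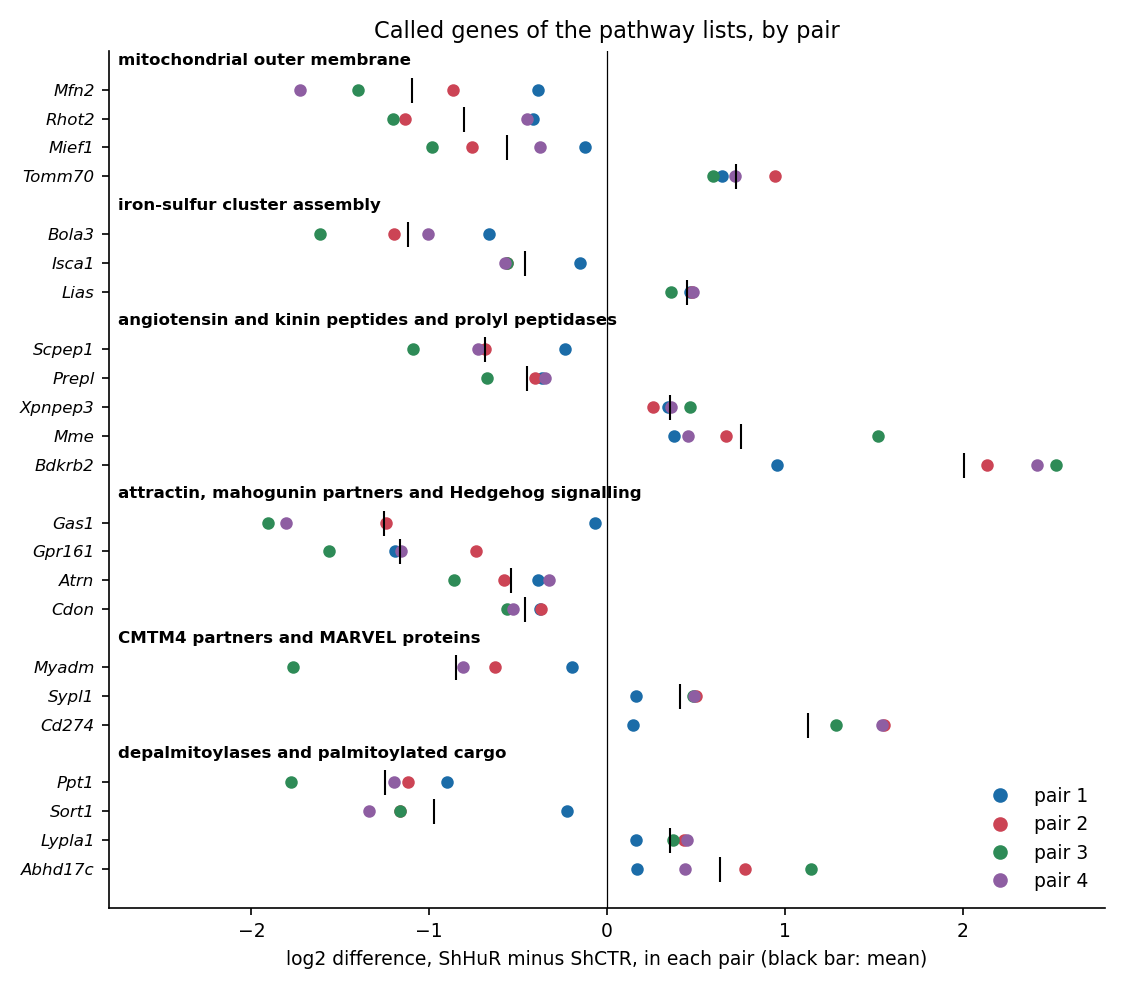
Log2 difference, ShHuR minus ShCTR (x axis), in each of the 4 pairs (coloured points) and on average (black bar) for the 23 genes of the 6 pathway lists called by limma with the replicate block. Bdkrb2 lies farthest to the right, at a mean of 2.01, and Gas1 and Ppt1 farthest to the left, at -1.26 and -1.25.

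The calls among relatives and pathway genes depended on the pairs kept. Of the 26 called with all pairs, 24 stayed called when pair 1 was left out, 6 when pair 3 was, 1 when pair 2 was and 0 when pair 4 was. Ppt1 was the gene called without pair 2, and it was also called without pair 3, as were Cisd2, Cmtm3, Tomm70, Bola3 and Bdkrb2. Without pair 4, Ppt1 had an adjusted p of 0.0619 and Bdkrb2 of 0.0693 in limma with the block.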

How the data were processed

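RNA-seq of 8 libraries was used, 4 ShHuR and 4 ShCTR, grouped by the labels. Each deposited value is a normalized signal: per the file headers and the values, the authors scaled the counts of a library by 1 common factor. In each library 100% of values were whole multiples of 1 read to within 0.01, so reads could be recovered. Libraries were stranded total RNA after Ribo-Zero Gold, per the labels' protocols. Aligner, counter, build and annotation were not given in the sources used here. Whether counting used the strand, and so kept reads of overlapping or antisense genes apart, is therefore not known. The authors also deposited log2 fold changes and adjusted p-values, of which only the log2 values are printed. Gene lengths are not used here, so levels are not compared between genes. Ensembl identifiers do not match the symbols in the sheet of all genes and were taken from that of called genes, and 21 symbols had become dates (0.258% of reads, left unnamed).

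Values were analysed as log2(value + 1), on which scale all log2 differences stand and which understates the change of low genes. Rows with at least 10 normalized counts in at least 4 libraries were tested, which kept 11847 and left out 1689. They entered a two-sided limma 3.58.1 fit (R 4.3.3) that models the mean-variance trend, tested on simulated data. Adjustment was by Benjamini and Hochberg over all rows tested, at a threshold of 0.05. The design had no replicate block. Same-numbered libraries deviated together from their group means, with correlations across genes of 0.871, 0.785, 0.627 and 0.773 for numbers 1 to 4. ShHuR replicate 2 with ShCTR replicate 3 reached 0.624, and ShHuR replicate 3 with ShCTR replicate 2 reached 0.427. The correlations alone thus hardly tell which of ShHuR replicates 2 and 3 is the partner of ShCTR replicate 3. Libraries with the same number were treated as pairs. This rests on the correlations and the numbering, as no label explains the numbers. Because the block changes the calls, blocked values are printed, and "rose" and "fell" refer to them. Alternatives were pseudocounts of 0.5 and 5, no filter, quantile normalization, edgeR 4.0.16 and DESeq2 1.42.0 on recovered reads, and leaving out each library or pair.

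The members, gene lists and alternatives were chosen with earlier results of these data known. Genes named are the members and Elavl1, the 5 rows nearest by their least pair difference, the 3 rows most like each member by Pearson's r, called relatives, up to 3 called rises and 3 called falls of each pathway list, and nucleus pulposus markers. A gene that this rule names is not reported here. Uncalled relatives, Mapk8ip3, Actb, Col1a1, Col3a1, Flt1, Cdh2, Slc2a1 and Igf2r were named after their values were seen. Promoters are from RefSeq (GRCr8). Mgrn1 and Zdhhc15 are named only.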

Additional observations from a re-analysis of the deposited data

Results flagged for a closer look

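No member had a library standing apart within its group, but 20 groups of other named genes did, out of 134 groups of 4 libraries examined, which cover the genes named in the text. A library was singled out when its gap to the nearest of the others, divided by the group's range, exceeded Dixon's 95% critical value, which chance gives in about 1 in 20 groups. In 17 of the 20 the library was replicate 1. Values are normalized counts.

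ShHuR replicate 1 was far above the other 3 ShHuR libraries for many of these genes. Isca1 had 1182 there and 385 to 472 in the others. Lias had 381 and 161 to 188. Scpep1 had 8844 and 1971 to 3059. Sort1 had 2515 and 417 to 535. Rnf157 had 188 and 36.6 to 59.8. Zdhhc8 had 617 and 108 to 145. Igf2r had 20665 and 5339 to 7501. Col3a1 had 13727 and 2482 to 3725. Mapk8ip3 had 673 and 112 to 147. Col2a1 had 3.04 and was listed at 0 in the others. Cmtm6 was low in ShHuR replicate 1, with 742 and 1255 to 1327 in the others.

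ShCTR replicate 1 was far above the other 3 ShCTR libraries for 6 genes. Scpep1 had 10418 there and 4200.1 to 5063 in the others. Xpnpep3 had 656 and 350.0 to 384. Zdhhc8 had 594 and 169 to 233. Igf2r had 19448 and 5653 to 5980.3. Slc2a1 had 30410.3 and 3712 to 8189.8. Mapk8ip3 had 2111 and 239 to 452. Of the other ShCTR libraries, replicate 4 was low for Rhot2, with 124 and 159 to 163 in the others. Replicate 3 was low for Mme, with 55.7 and 84.1 to 86.9 in the others, and high for Col2a1, with 21.0 and 0 to 1.79 in the others.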

How the results depend on the processing

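All 5 members stayed lower in ShHuR under all 25 alternatives. They were picked for being lower in every pair, and each had every ShHuR value below every ShCTR value. The direction could therefore not reverse when a library or pair was left out, or when the pseudocount or filter changed. Those alternatives thus do not test the direction, and only the size of the difference is described for them. Leaving out a library or pair moved the log2 difference of Cisd1 between -2.71 and -1.88, Prcp between -1.91 and -1.42, Mgrn1 between -1.99 and -1.43, Cmtm4 between -1.94 and -1.53 and Zdhhc15 between -3.16 and -2.31. The one move beyond the spread of its pairs was Prcp at -1.42 without ShCTR replicate 1. The other alternatives kept Cisd1 between -2.24 and -1.95 and Zdhhc15 between -2.96 and -2.56.

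Counts of calls depended on the replicate block, and the cause was not tested. Over all rows, limma called 0 without the block and 1802 with the replicate block, and DESeq2 without the block called 248. With the replicate block the count was 1787 at a pseudocount of 0.5, 1831 at 5, 1770 with no filter, 1648 after quantile normalization, 1845 with edgeR and 2053 with DESeq2. Leaving out 1 library without the block gave 0 to 105, the highest without ShHuR replicate 1. Leaving out a pair with the block gave 0 to 2831, namely 2831, 62, 523 and 0 without pairs 1, 2, 3 and 4. Among relatives the replicate block gave 3 calls, also 3 at both pseudocounts, with no filter and with DESeq2, and 4 after quantile normalization and with edgeR, each adding Cmtm7. Leaving out a library or pair gave 0 to 6. Without pair 1 Cmtm6, Cmtm7 and Zdhhc8 were added, and without ShHuR replicate 1 Zdhhc2 was called even without the block. Among pathway genes the replicate block gave 23 calls, 23 at a pseudocount of 0.5, 24 at 5, 23 with no filter, 19 after quantile normalization, 22 with edgeR and 27 with DESeq2, and DESeq2 without the block gave 2. Leaving out a library or pair gave 0 to 31. Of the 26 called genes, 20 were called in all 6 other blocked settings that kept every pair. The exceptions were Lypla1, Mme, Xpnpep3, Gas1, Cd274 and Sypl1. Each of the 26 called genes was also compared, in each of the 25 alternatives, with limma without the block, which called 0 of them. In 443 of these comparisons the gene stayed uncalled, as in that fit. It was called in 207, and 0 changed direction.

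Depth limits Zdhhc15 most, with 4 to 19 reads in ShHuR libraries.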
